A study of Mus musculus with 6 samples.

Results

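Galactosylceramide and its sulfated form, sulfatide, are the main glycolipids of the myelin sheath. The 10 genes described here make or degrade these lipids. They were chosen by name for their place in the pathway, each symbol standing for the gene identifier with the highest mean. All 10 were found among 55298 identifiers, and all 10 passed the filter on low values that left 18161 genes for testing. RNA was sequenced from brain cells of mice of the strain labelled c56Bl/6j, isolated with magnetic beads that carry O4 antibodies and not cultured. The EAE group was given MOG 35-55, a peptide of myelin oligodendrocyte glycoprotein that induces experimental autoimmune encephalomyelitis, and the OVA group was given ovalbumin in its place. Cells were taken once disease had reached its maximum. The RNA from 6 EAE mice formed 3 pools of 2 mice, and RNA of 4 OVA mice formed 1 pool of 2 mice (OVA replicate 2) and 2 samples of 1 mouse each (OVA replicates 1 and 3).

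The pathway starts in the endoplasmic reticulum, where serine palmitoyltransferase, made of Sptlc1 and Sptlc2, joins serine to a fatty acid. The product is reduced by Kdsr, given its second fatty acid by a ceramide synthase, of which Cers2 is the one for very long chains, and desaturated to ceramide by Degs1. In oligodendrocytes much of that fatty acid carries a hydroxyl group set by Fa2h. Ugt8a then adds galactose, which gives galactosylceramide, and Gal3st1 adds sulfate in the Golgi, which gives sulfatide. In the lysosome Arsa removes the sulfate and Galc the galactose, and loss of either enzyme causes a leukodystrophy in humans. Sulfatide is the antigen that the O4 antibody binds, so the capture step selected for the product of these genes.

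Ugt8a and Gal3st1 complete the lipid that the antibody held, and the 250 bases before the annotated start of each are shown. The sequences are RefSeq's on GRCm38.p6. They cover chr3:125938653-125938902 on the minus strand for Ugt8a and chr11:3983386-3983635 on the plus strand for Gal3st1, the first of 3 starts listed. Capitals mark the SOX core letters (ACAAT or ACAAAG) and the GC box (GGGCGG), each searched on both strands.
Ugt8a: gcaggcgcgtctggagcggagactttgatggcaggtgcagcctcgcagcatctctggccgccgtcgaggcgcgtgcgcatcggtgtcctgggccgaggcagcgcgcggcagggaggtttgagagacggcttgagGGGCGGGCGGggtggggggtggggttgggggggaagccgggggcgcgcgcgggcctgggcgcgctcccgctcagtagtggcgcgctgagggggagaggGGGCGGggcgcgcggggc
Gal3st1: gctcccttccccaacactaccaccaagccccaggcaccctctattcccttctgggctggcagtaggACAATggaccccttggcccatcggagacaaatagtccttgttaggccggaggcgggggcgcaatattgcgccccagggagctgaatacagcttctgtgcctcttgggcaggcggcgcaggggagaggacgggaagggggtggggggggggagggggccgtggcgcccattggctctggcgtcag
The Ugt8a window held 3 GC boxes, of which those starting 116 and 112 bases before the start overlapped each other, and no SOX core letters. The Gal3st1 window held ACAAT once, 184 bases before the start, and no GC box. Of 27025 promoters of the same length, 39.4% held a SOX core match and 32.9% a GC box. The letters CTGGCAC or CTGGTAC, known as the core recognised by the myelin factor MYRF, were in neither window and in 5.9% of all promoters. G and C made up 76.8% of the Ugt8a window and 65.6% of the Gal3st1 window. A match describes the letters and does not show a bound factor, and no link between these letters and the transcript levels was tested.

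The samples held the transcripts of oligodendrocytes along with those of other brain cells. All 14 oligodendrocyte markers were detected, and none of the markers in any of the 9 lists examined was at 0. The summed level of the oligodendrocyte markers lay between 20.36 and 20.50 in EAE and between 19.97 and 20.41 in OVA on the log2 scale. Mbp, myelin basic protein, was at 17.65, 17.70 and 17.73 in EAE pools, against 17.25, 17.56 and 16.87 in OVA samples. OVA replicate 3 was the lowest, and relative to the average of OVA replicates 1 and 2 its oligodendrocyte markers had a median of -0.42 and its endothelial markers one of 0.64. Fewer cells of a type and less RNA per cell cannot be told apart in such samples. The EAE pools had a higher summed level of 10 markers of phagocytes and infiltrating myeloid cells, called phagocyte markers below. It was 15.84 to 16.19, against 14.06 to 14.87 in OVA. That of 8 astrocyte markers was lower, 15.92 to 16.23 against 16.70 to 17.03. Of the phagocyte markers 7 rose and 0 fell, and of the astrocyte markers 5 fell and 1 rose (limma adjusted p under 0.05). T cell markers rose for 5 of 6 and fell for 0. Microglia and oligodendrocyte precursor markers, 7 in each list, fell for 2 in each and rose for 0. The 2 lists differed in direction as a whole. The precursor markers had a median difference of 0.30, with 4 of 7 above 0. The microglia markers had one of -0.36, with 1 of 7 above 0. In the oligodendrocyte, endothelial, pericyte and neuron lists 0 rose or fell at that threshold. Each of these lists still lay to 1 side. All 14 oligodendrocyte and all 6 neuron markers were above 0, at medians of 0.26 and 0.11. Of the 5 endothelial and 4 pericyte markers 0 were above 0, at medians of -0.55 and -0.38. Of all tested genes 1.72% were higher and 0.666% were lower. The groups also differed in sex-linked transcripts. Xist was at 13.50, 13.55 and 14.16 in EAE pools, against 7.39, 7.63 and 7.62 in OVA samples. The Y-linked Ddx3y was at 10.18, 10.17 and 9.44 in EAE pools, against 11.46, 11.38 and 11.29 in OVA samples, so it was expressed in every pool. The labels do not give the sexes of the mice, and a difference in sex cannot be told apart from the treatment.

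None of the 10 genes passed the test between EAE and OVA. Their differences ran from -0.09 for Kdsr to 0.31 for Gal3st1 on the log2 scale, with 6 above and 4 below 0. On the deposited scale every 95% interval lay between a level 1.30-fold lower and a level 1.5-fold higher in EAE. The genes were tested with a limma linear model over all 18161 genes with Benjamini-Hochberg adjustment and a threshold of 0.05. In that fit 1.72% of all tested genes were higher and 0.666% were lower in EAE, so a count of 0 among 10 genes is close to what the background gives. The adjusted p of the 10 genes ran from 0.237 to 0.96. At an unadjusted p under 0.05 there was 1 gene of the 10, Gal3st1, against 16.3% of all tested genes. The groups did not overlap for 1 gene of the 10, Kdsr, against 22.8% of all tested genes. The median difference of the 10 genes was 0.06, beside -0.0024 over all tested genes, and the median size of a difference, regardless of sign, was 0.09 beside 0.11. By exact two-sided permutation, where 0.1 is the smallest p that 3 against 3 allows, the 10 genes gave p values of 0.1 to 0.9.

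**Figure D1:**
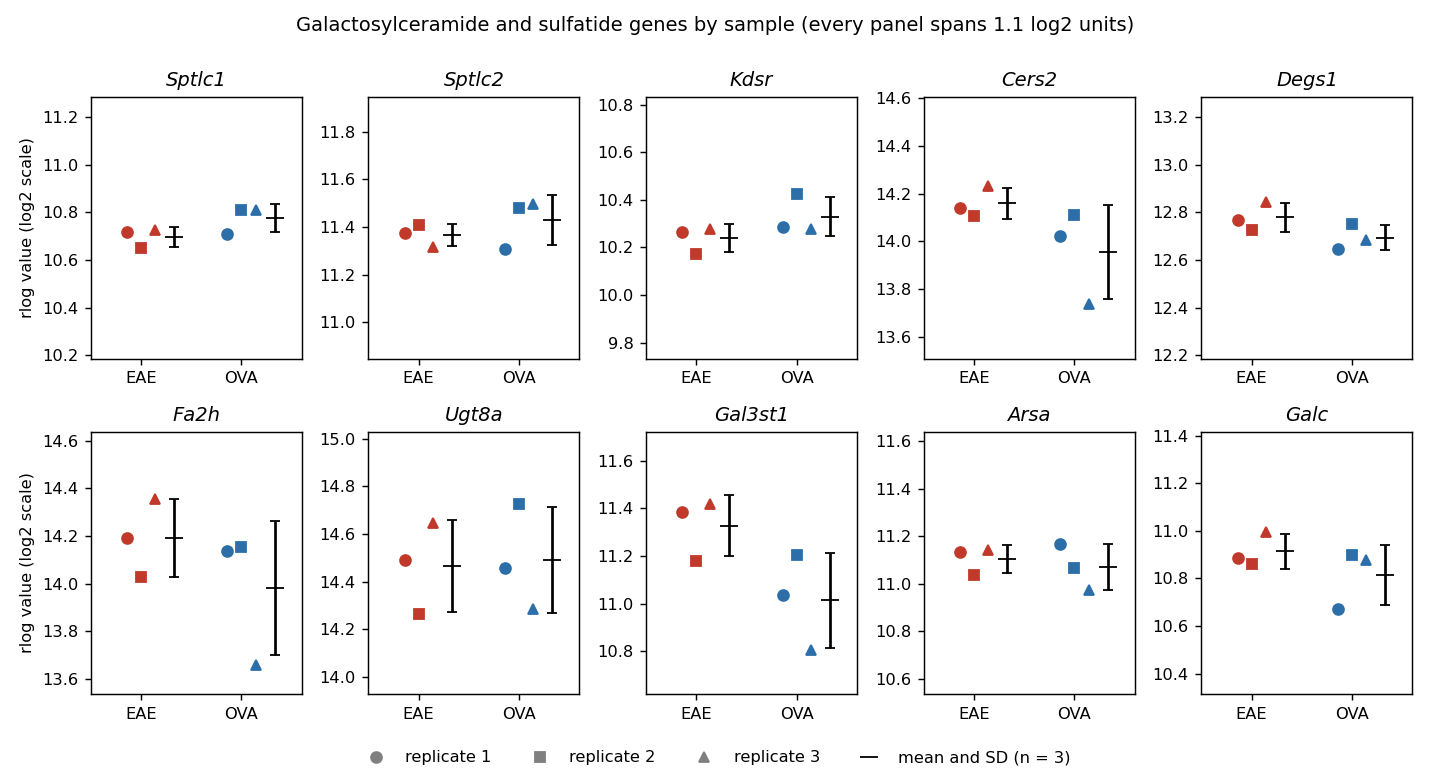
rlog value (log2 scale) of each of the 10 genes in the 3 EAE and 3 OVA samples, with symbols for the replicates and a bar for mean and SD (n = 3). Every panel spans the same number of log2 units; OVA replicate 3 is the lowest sample for Cers2, Fa2h, Gal3st1 and Arsa, and the groups overlap in all panels except that of Kdsr.

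The genes of the first steps differed by small amounts. Sptlc1 (ENSMUSG00000021468.8, GRCm38 chr13:53332748-53377397) was at 10.72, 10.65 and 10.72 in EAE pools, against 10.71, 10.81 and 10.81 in OVA samples. Its difference was -0.08 ± 0.07 (SE; limma adjusted p = 0.609), and all 6 samples lay within a narrow band. Its partner Sptlc2 (ENSMUSG00000021036.10, chr12:87305058-87388355) was at 11.38, 11.41 and 11.31 in EAE pools, against 11.31, 11.48 and 11.50 in OVA samples. The difference was -0.06 ± 0.08 (adjusted p = 0.74 in the same limma fit), and the EAE values fell inside the OVA range.

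The reductase gene Kdsr (ENSMUSG00000009905.5, chr1:106720459-106759727) was at 10.2668, 10.1713 and 10.2773 in EAE pools, against 10.2848, 10.4231 and 10.2776 in OVA samples. All EAE values were below all OVA values, but the nearest pair was separated only in the fourth decimal place. The difference was -0.09 ± 0.08 (SE; limma adjusted p = 0.598). With array quality weights, in which OVA replicate 2 had a weight of 8.85 and OVA replicates 1 and 3 had 0.275 and 0.222, Kdsr fell by 0.19 (adjusted p = 0.0231). The estimation of these weights stopped before it converged, and under them 12.3% of all tested genes were called lower in EAE. It was the only call of Kdsr among 15 alternative settings, and the others gave an adjusted p of up to 0.869.

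Cers2 (ENSMUSG00000015714.11, chr3:95314791-95323599) was at 14.14, 14.11 and 14.23 in EAE pools, against 14.02, 14.11 and 13.73 in OVA samples. OVA replicate 3 stood below the other 5 samples, which lay close together. The difference was 0.20 ± 0.12 (SE; limma adjusted p = 0.449), and without OVA replicate 3 it was 0.09. Setdb1 overlaps Cers2 on the other strand at a mean of 10.99, beside 14.06 for Cers2, and the sources used here do not say whether reads were counted by strand. The desaturase gene Degs1 (ENSMUSG00000038633.5, chr1:182275772-182282804) was at 12.77, 12.73 and 12.85 in EAE pools, against 12.65, 12.75 and 12.68 in OVA samples. The groups overlapped, and the difference was 0.09 ± 0.07 (adjusted p = 0.615).

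Fa2h (ENSMUSG00000033579.16, chr8:111345135-111393824) was at 14.19, 14.03 and 14.35 in EAE pools, against 14.14, 14.15 and 13.66 in OVA samples. As for Cers2, the low OVA sample was replicate 3, and without it the difference of 0.21 ± 0.16 (SE; limma adjusted p = 0.565) became 0.04. Within OVA the values spanned 0.50 log2 units, the widest spread of the 10 genes in either group.

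Ugt8a (ENSMUSG00000032854.12, chr3:125865271-125938619), which commits ceramide to the galactolipids, was at 14.49, 14.26 and 14.65 in EAE pools, against 14.46, 14.73 and 14.28 in OVA samples. The lowest sample was an EAE pool and the highest was the OVA pool, and the ranges of the groups covered each other almost fully. The means were 14.47 ± 0.19 in EAE and 14.49 ± 0.22 in OVA (SD, n = 3 each), a difference of -0.02 ± 0.15 (SE; limma adjusted p = 0.96). Its 95% interval, from -0.38 to 0.33, leaves room for a change of up to 1.30-fold down or 1.26-fold up.

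Gal3st1 (ENSMUSG00000049721.14, chr11:3983636-3999326), the cerebroside sulfotransferase, was at 11.38, 11.18 and 11.42 in EAE pools, against 11.03, 11.20 and 10.81 in OVA samples. EAE replicate 2 lay below OVA replicate 2, and the other EAE pools lay above all OVA samples. The difference of 0.31 ± 0.12 was the largest among the 10 genes (SE; unadjusted p = 0.0291 and limma adjusted p = 0.237), with a 95% interval from 0.04 to 0.58. It lay between 0.21 and 0.41 with any 1 sample left out.

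The degradation genes did not pass the test either. Arsa (ENSMUSG00000022620.14, chr15:89472476-89477425), arylsulfatase A, was at 11.14, 11.04 and 11.14 in EAE pools, against 11.17, 11.07 and 10.98 in OVA samples, a difference of 0.03 ± 0.08 (SE; limma adjusted p = 0.869). C230037L18Rik overlaps Arsa on the other strand at a mean of 9.56, beside 11.09 for Arsa. Galc (ENSMUSG00000021003.10, chr12:98202294-98259459), galactosylceramidase, was at 10.885, 10.861 and 10.997 in EAE pools, against 10.671, 10.899 and 10.878 in OVA samples. Its difference was 0.10 ± 0.09 (adjusted p = 0.617). The groups overlapped for both genes. The summed level of the markers of phagocytes, which are rich in lysosomes, did not overlap between the groups. The part of these cells in the levels of Arsa and Galc was not tested.

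Per kilobase of annotated exon, the 3 transcripts of Fa2h, Ugt8a and Cers2 were the most abundant of the 10. Their mean levels were 12.50 ± 0.24, 12.30 ± 0.19 and 12.18 ± 0.17 (log2 scale, SD over 6 samples), and their ranges over samples overlapped, so their order is not resolved. Degs1 followed at 11.36, Gal3st1 at 10.14 and Arsa at 9.21, with ranges that did not overlap their neighbours. Sptlc1 was at 8.91, Sptlc2 at 8.38, Kdsr at 7.26 and Galc at 6.97, again without overlap between neighbours. The span from Fa2h to Galc was 46.1-fold. The length is that of all annotated exons merged, 14879 bases for Galc and 2041 for Gal3st1, and which transcripts were in use was not measured, so a long annotated gene can be placed too low.

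The 10 genes fell apart by how they varied between samples. Fa2h, Cers2 and Gal3st1 followed the mean of the 14 oligodendrocyte markers, with root mean square departures from it of 0.05, 0.05 and 0.07 log2 units over 6 samples. Ugt8a departed by 0.17, and the remaining genes by 0.16 to 0.26. Relative to the average of OVA replicates 1 and 2, OVA replicate 3 was at -0.49 for Fa2h, -0.33 for Cers2, -0.31 for Gal3st1 and -0.31 for Ugt8a. The same measure was 0.05 for Sptlc1, 0.10 for Sptlc2 and 0.09 for Galc, so by it these transcripts were not lower in the sample with the lowest oligodendrocyte marker level. It was below 0 for the remaining genes, at -0.02 for Degs1, -0.08 for Kdsr and -0.14 for Arsa. Arsa had its lowest value in OVA replicate 3. These profiles are a description over 6 samples with no test.

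**Figure D2:**
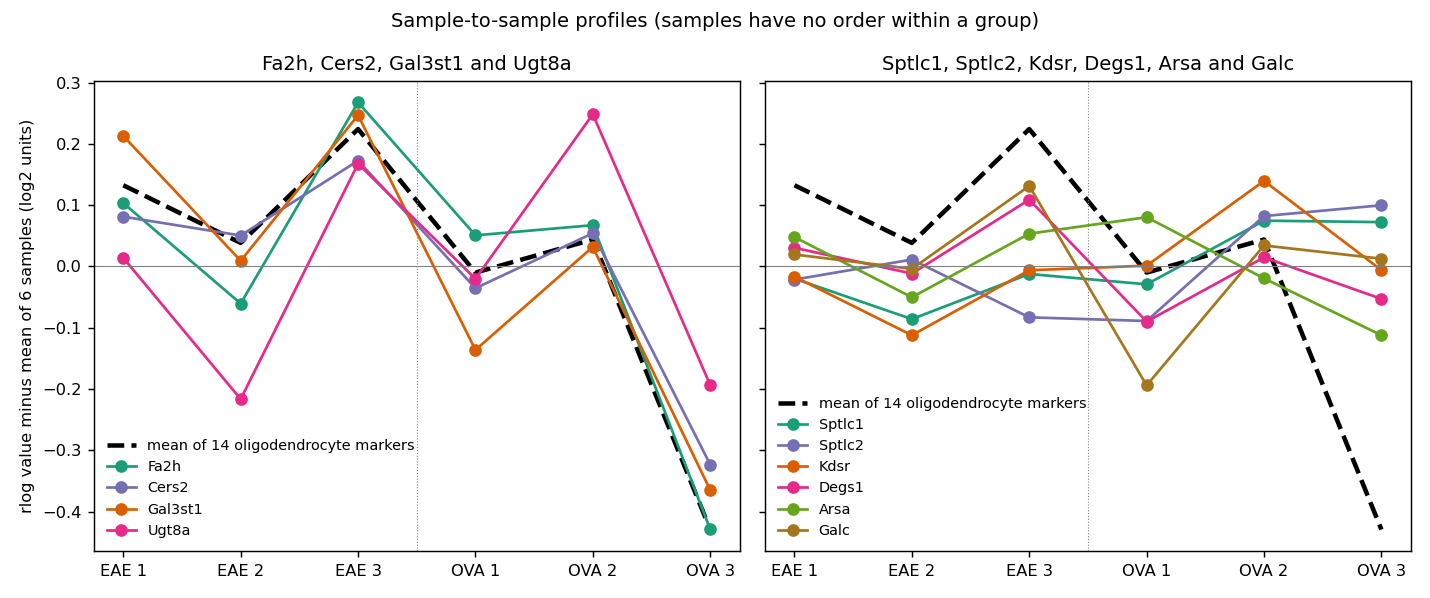
rlog value of each gene minus its mean over the 6 samples (log2 units), with the mean of 14 oligodendrocyte markers as a dashed line. Fa2h, Cers2 and Gal3st1 stay near the dashed line, Ugt8a leaves it in EAE replicate 2 and in OVA replicates 2 and 3, and no gene in the right panel drops in OVA replicate 3 as far as the markers do.

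Among 14840 other protein-coding genes tested, the profile closest to that of Ugt8a was that of Omg, the oligodendrocyte myelin glycoprotein, at a root mean square difference of 0.03 log2 units over the 6 samples. Slitrk5 and Tmem229a came next, both at 0.06. The median over all candidates was 0.21. For Gal3st1 the closest were Inava and Frmd8, both at 0.03, and Sirt2, a deacetylase abundant in myelin, also at 0.03, beside a median of 0.24.

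Values were also taken relative to the oligodendrocyte markers. The marker mean was 15.23, 15.14 and 15.33 in EAE pools, against 15.09, 15.15 and 14.67 in OVA samples, a difference of 0.26. When each sample was centred on that mean, the median difference of all tested genes moved to -0.27, and 98 genes were higher and 209 lower in EAE, against 312 higher and 121 lower on the deposited scale. Of the 10 genes 1 then lay above 0 and 9 below, with a median of -0.20, beside that of all genes. Again 0 of the 10 passed the limma threshold, and 1, Ugt8a, had an unadjusted p under 0.05, against 18.8% of all tested genes on that scale. The groups did not overlap for 4 of the 10 (Ugt8a, Sptlc1, Kdsr and Arsa), against 35.9% of all tested genes. Relative to the markers, Ugt8a was at 14.36, 14.22 and 14.42 in EAE pools, against 14.47, 14.68 and 14.71 in OVA samples. On that scale all EAE values were below all OVA values, with a difference of -0.29 ± 0.11 (SE; unadjusted p = 0.0212 and limma adjusted p = 0.223). Gal3st1 differed by 0.05 ± 0.16, Fa2h by -0.06 ± 0.11 and Cers2 by -0.06 ± 0.11 (adjusted p = 0.813, 0.694 and 0.675). The centring adds the spread of the marker mean to genes that do not follow it. The intervals of Sptlc1, Sptlc2, Kdsr, Degs1, Galc and Arsa became wider. That of Gal3st1 became wider too, with an SE of 0.16 in place of 0.12. Its SD nevertheless fell from 0.13 to 0.05 in EAE and from 0.20 to 0.10 in OVA. The limma SE draws in part on the spread of all tested genes, so it does not measure the spread of 1 gene alone.

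**Figure D3:**
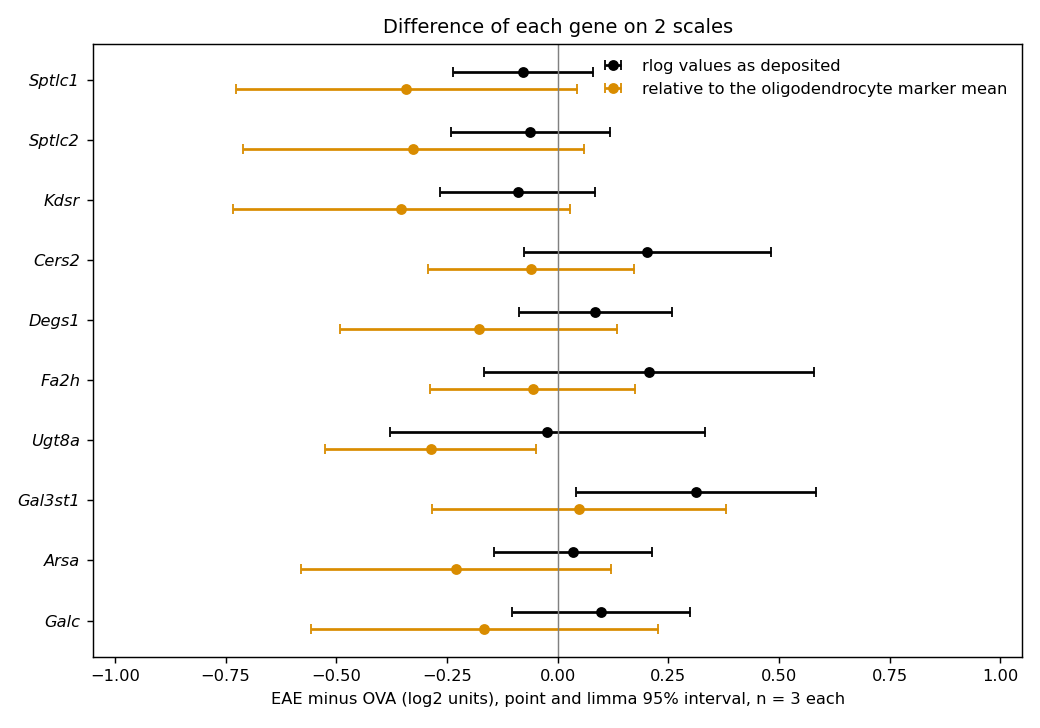
Difference of each gene between EAE and OVA (EAE minus OVA, log2 units; points with limma 95% intervals, n = 3 each) for the deposited values in black and for values relative to the oligodendrocyte marker mean in orange. On the deposited scale Gal3st1 has the only interval that leaves out 0, and on the relative scale Ugt8a has the only one; neither passed the adjusted threshold.

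Ratios of genes within a sample do not depend on the scaling between samples. In all, 5 ratios were formed, chosen after the values had been seen, and their p values do not account for that choice. How often ratios of other gene pairs keep the groups apart was not counted. The log2 ratio of Gal3st1 over Ugt8a, the last steps of sulfatide synthesis, was -3.11, -3.08 and -3.23 in EAE pools, against -3.42, -3.52 and -3.48 in OVA samples. The groups were apart, with means of -3.14 ± 0.08 and -3.48 ± 0.05 (SD, n = 3 each), and the ratio was 1.26-fold higher in EAE. The exact permutation p was 0.1, the smallest that 3 against 3 can give, and 0.25 after Benjamini-Hochberg adjustment over the 5 ratios. With any 1 sample left out the difference was 0.31 to 0.38.

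The ratio of Arsa over Gal3st1, which sets removal of the sulfate against its addition, was -0.25, -0.14 and -0.28 in EAE pools, against 0.13, -0.13 and 0.17 in OVA samples. Here all EAE values were below all OVA values, but EAE replicate 2 and OVA replicate 2 nearly met (difference -0.28, exact permutation p = 0.1, adjusted 0.25). Ugt8a over Ugcg sets the galactose branch against the glucose branch, since Ugcg makes glucosylceramide. That ratio averaged 4.79 ± 0.24 in EAE and 4.85 ± 0.32 in OVA (SD, n = 3 each; exact permutation p = 0.8), and the groups overlapped. Galc over Ugt8a overlapped as well, with a difference of 0.12 (exact permutation p = 0.5).

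**Figure D4:**
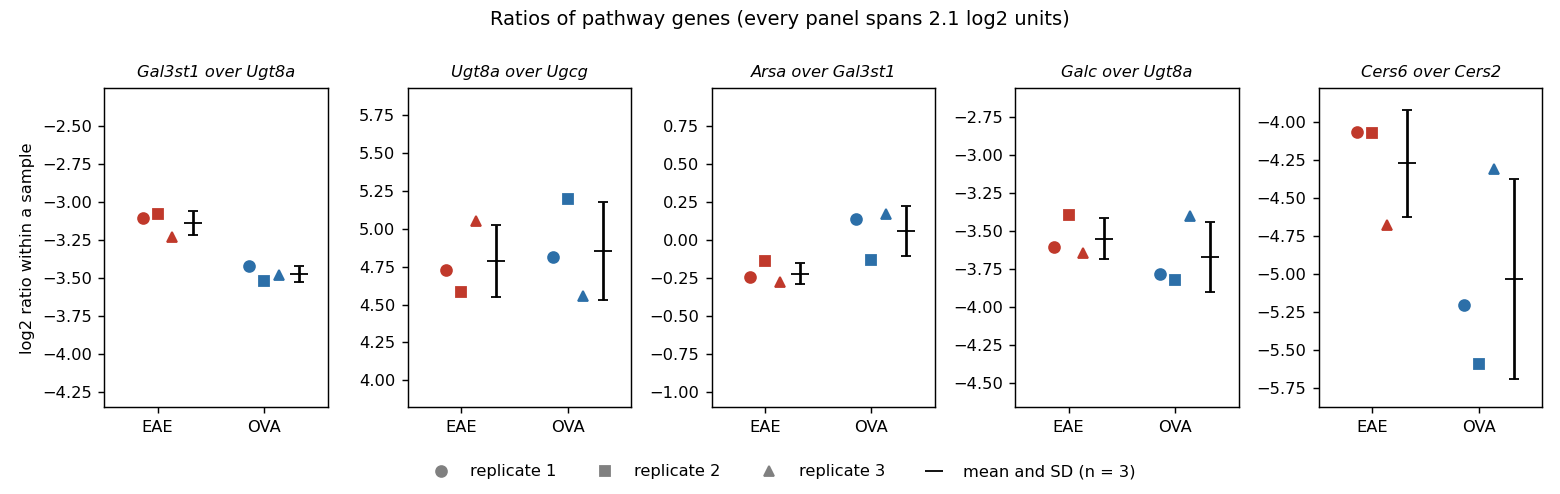
Log2 ratio of pairs of pathway genes within each sample, with symbols for the replicates and a bar for mean and SD (n = 3). The EAE pools lie above all OVA samples for Gal3st1 over Ugt8a and below them for Arsa over Gal3st1, and the groups overlap in the other panels. Both ratios without overlap contain Gal3st1, so they are not separate observations.

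Around the 10 genes, 76 further genes of sphingolipid and long-chain fatty acid metabolism were examined in 9 lists by role, of which 73 passed the low-value filter. Of these 3 rose and 0 fell, against 1.72% higher and 0.666% lower of all tested genes. An unadjusted limma p under 0.05 was reached by 18 of the 73, a larger share than the 16.3% of all tested genes. The lists were not tested as sets, and the median difference was -0.02. The 3 were Ctsb, B4galnt1 and Sgpl1, and the count became 0 without any of the EAE replicates or OVA replicates 1 and 2, 6 without OVA replicate 3, and 0 relative to the oligodendrocyte markers. With 1 sample left out the differences stayed at 0.70 to 0.78 for Ctsb, 0.64 to 0.87 for B4galnt1 and 0.42 to 0.52 for Sgpl1. The 3 genes not tested for their low values were Sptssb, Gltpd2 and Acer1.

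Of 6 tested genes listed as partners and regulators of serine palmitoyltransferase 0 passed, and their differences ran from -0.12 to 0.16. The smallest p values belonged to Zdhhc9, at a difference of 0.16, and Ormdl1, at -0.12 (limma adjusted p = 0.495 and 0.631). Ormdl1 restrains serine palmitoyltransferase. Zdhhc9 encodes an enzyme that palmitoylates proteins and is not a subunit of it, although the list held it. Of 6 genes that comprise the other ceramide synthases and the desaturase Degs2, 0 passed. Cers6, which makes ceramide with shorter chains than Cers2 does, was at 10.07, 10.03 and 9.55 in EAE pools, against 8.81, 8.52 and 9.42 in OVA samples. The groups did not overlap, but OVA replicate 3 was near the lowest EAE pool, and the difference of 0.97 ± 0.24 (SE) had a limma adjusted p of 0.0944. In that OVA sample the phagocyte markers were higher than in OVA replicates 1 and 2, at a median of 0.44 over their average, and their part in the result was not tested. Cers5 differed by -0.19 (adjusted p = 0.191). The ratio of Cers6 over Cers2 averaged -4.27 ± 0.35 in EAE and -5.04 ± 0.66 in OVA (SD, n = 3 each), with overlapping groups (exact permutation p = 0.2).

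The donors of galactose and sulfate are UDP-galactose and PAPS. Of 11 genes that supply them 0 passed. Papss2, one of the PAPS synthases, was at 8.64, 8.39 and 8.32 in EAE pools, against 9.16, 8.84 and 8.87 in OVA samples. All EAE values were lower, and the difference was -0.50 ± 0.13 (SE; limma adjusted p = 0.0977). Phosphoglucomutase Pgm1 differed by -0.28 (adjusted p = 0.303). The 5 partners of 2-hydroxylation included 0 past the threshold, with the smallest p for Cyb5b at -0.14 and Phyh at -0.07 (adjusted p = 0.475 and 0.659). Of 6 tested genes of lipid transport or binding 0 passed. Col4a3bp, the ceramide carrier also named Cert1, differed by -0.28, and Gltp, a glycolipid transfer protein, by 0.20 (adjusted p = 0.349 and 0.358).

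Of 10 lysosomal partners 1 rose. Ctsb, the protease cathepsin B, which is not an enzyme of the galactolipids, was at 15.04, 14.95 and 15.09 in EAE pools, against 14.20, 14.33 and 14.33 in OVA samples. The groups were well apart, and Ctsb was 1.68-fold higher in EAE, by 0.75 ± 0.10 (SE; limma adjusted p = 0.017). Psap encodes the saposins, of which saposin B presents sulfatide to Arsa. It was at 16.42, 16.23 and 16.33 in EAE pools, against 15.67, 15.74 and 15.87 in OVA samples. The groups did not overlap, and the difference of 0.57 ± 0.15 did not pass (adjusted p = 0.101). The phagocyte marker levels given above differed between the groups in the same direction as Ctsb, and their part in its rise was not tested.

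Of 10 genes that turn ceramide, or glycolipids made from it, into other lipids 1 rose. B4galnt1, which makes complex gangliosides and does not act on ceramide itself, was at 9.43, 9.45 and 9.44 in EAE pools. In OVA samples it was at 8.56, 8.58 and 9.01. The EAE pools were almost equal and OVA replicate 3 stood nearer to them, with a difference of 0.72 ± 0.13 or 1.65-fold (SE; limma adjusted p = 0.0356). Cerk, ceramide kinase, differed by 0.31 (adjusted p = 0.131). Of 11 tested genes of ceramide turnover and sphingosine phosphate 1 rose. Sgpl1, the lyase that ends sphingolipid breakdown, was at 11.89, 11.68 and 11.68 in EAE pools, against 11.28, 11.24 and 11.28 in OVA samples, a 1.40-fold difference (adjusted p = 0.0272). Of the 8 enzymes of long-chain fatty acids 0 passed. Acsbg1, an acyl-CoA synthetase, differed by -0.84 and the dehydratase gene Hacd3 by -0.34 (adjusted p = 0.0538 and 0.0595), each with all EAE values below all OVA values. The summed level of the 8 astrocyte markers was also lower in EAE, as given above, although Gfap among them rose, and their part was not tested.

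**Figure D5:**
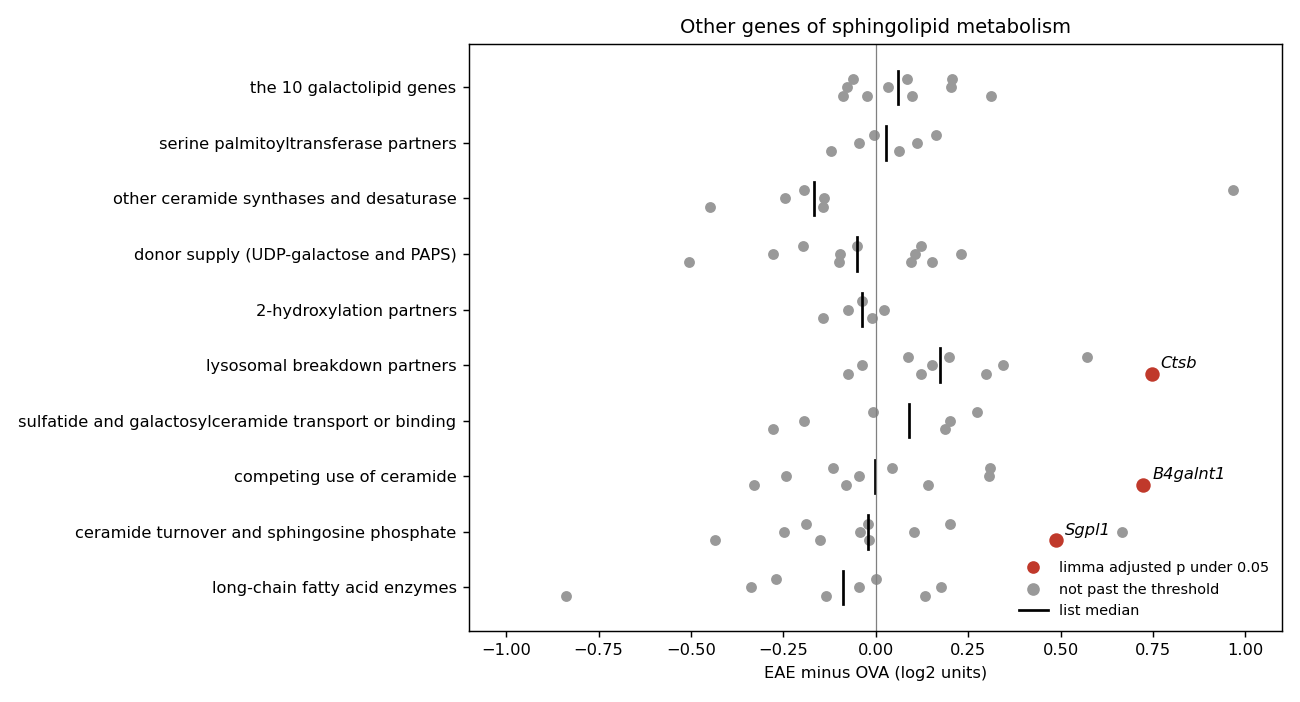
Difference of each gene between EAE and OVA (EAE minus OVA, log2 units) for the 10 galactolipid genes and 9 lists of further pathway genes, with the list median as a black line. Red points passed the limma threshold, namely Ctsb, B4galnt1 and Sgpl1; the 10 galactolipid genes lie between -0.09 and 0.31.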

How the data were processed

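Per the labels' protocols, the kit was TruSeq Stranded mRNA. STAR 2.6.1c, Subread 1.6.1, DESeq2 1.24.0, cutadapt 1.18, bcl2fastq 2.17 and the build GRCm38 are named, without roles, in the submitters' processing notes. The deposited table holds log2 values, by its name and values the authors' regularised logarithm (rlog), which shrinks each gene towards its mean, so differences of weakly expressed genes are understated. It gives no counts, so depth is unknown and no counting interval is given. A symbol was found for 99.7% of 55298 identifiers. Gene positions (1-based, GRCm38) come from GENCODE M21.

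Genes with a mean rlog value of at least 3 were fitted with limma 3.58.1 in R 4.3.3 (EAE minus OVA, intensity trend, two-sided, Benjamini-Hochberg over all tested genes), after the fit had been checked on values made with known differences. Every gene-level adjusted p comes from that fit unless another setting is named. Errors are SE for differences and SD for group values. Groups follow the treatment labels, and replicate numbers follow deposition order. Where nothing else is said, p-values measure the spread between samples that are partly pools. The 10 genes and the lists were chosen with earlier results of these data known. The text names all 10, every list gene past the threshold or otherwise the 2 with the smallest p in a list, and the 3 nearest profiles of Ugt8a and Gal3st1, and beyond this rule Psap, Cerk and the genes of the ratios. Summed marker levels are the log2 of the sum of 2 to the power of each rlog value.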

Additional observations from a re-analysis of the deposited data

How the results depend on the processing

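The count of 0 higher genes among the 10 held under all 15 alternatives, and the count of 0 lower genes under all except array quality weights, which gave 1 (Kdsr). That weighting, whose estimation stopped before it converged, called 2858 genes higher and 2233 lower in all, and 12 higher and 15 lower of the further pathway genes. Leaving out 1 sample moved the count of all genes between 24 and 850 higher and between 1 and 346 lower, and that of the further pathway genes between 0 and 6 higher and between 0 and 2 lower. The pathway genes lower in EAE numbered 2 with samples weighted by their number of mice and 1 with quantile normalisation. Centring on the oligodendrocyte markers gave 98 higher and 209 lower genes, 0 higher and 1 lower pathway genes, and a median of -0.20 for the 10 genes. Under it the sign turned for Fa2h (-0.056), Cers2 (-0.061), Degs1 (-0.18), Galc (-0.17) and Arsa (-0.23). With 1 sample left out Ugt8a lay between -0.13 and 0.10 and Arsa between -0.013 and 0.083. Filters on low values, the trend, a robust prior and protein-coding genes alone leave the difference of a gene unchanged, so they could turn no sign. Causes were not tested. No paired analysis was possible because replicate numbers only name the samples in deposition order. The unknown depth, the shrinkage and 3 samples a group limit what small differences can be seen.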
